A study of Homo sapiens with 10 samples.

Results

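The interferon regulatory factors examined were IRF1, IRF2, IRF3, IRF4, IRF5, IRF7, IRF8 and IRF9, each taken through every probe on the array whose RefSeq accession carries that symbol. They were 8 of 35267 genes and other names on the array, with 9 of its 42405 probes. IRF3 had 2 probes and the other genes 1 each. The cells were MEG-01, a human megakaryoblastic leukemia line that serves as a stand-in for megakaryocytes, the cells that shed platelets. They were transfected by nucleofection with 200 nM of a precursor of miR-1225-3p or of a scrambled negative control, and total RNA was taken 24 hours later. Each group had 5 biological replicates on single-colour Agilent arrays, labelled 1 to 5 within its group. All cells came from 1 line, so the replicates are separate transfections and not separate donors. A source label calls the scrambled cells untreated, whereas their titles and the methods describe transfection with the control, which is how they are taken here.

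Interferon regulatory factors are transcription factors that bind interferon-stimulated response elements through a shared DNA-binding domain. IRF3, IRF5 and IRF7 wait in the cytoplasm until kinases downstream of nucleic acid sensors phosphorylate them, after which they switch on interferon genes. IRF9 binds DNA as part of the complex ISGF3, which carries the signal from the type I interferon receptor to the interferon-stimulated genes. IRF1 is itself induced by interferon gamma and is opposed by IRF2, while IRF4 and IRF8 work mainly in lymphoid and myeloid cells.

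The transfected microRNA is shown because its seed defines which transcripts it could pair with. The RefSeq mature sequence lies at chr16:2090195-2090216 on the minus strand (GRCh38.p14), within MIR1225, and bases 2 to 8, the seed, are in capitals.
miR-1225-3p: uGAGCCCCugugccgcccccag
Pairing of this seed with the transcripts of the interferon regulatory factors was not tested.

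Promoter windows of 300 bases, from 250 before to 50 after the start, were held in the RefSeq table for 5 of the 8 genes (IRF1, IRF4, IRF5, IRF8 and IRF9), 9 windows in all. IRF2, IRF3 and IRF7 had none in that table. The letters TTCNNNGAA, the core of the gamma-activated site that STAT dimers bind, were found in the windows of IRF1 and IRF9 and in no other of these windows. They occurred in 7.66% of all 35116 promoter windows, searched on both strands. The match with its flanks is given for IRF1 and IRF9 because no other of these windows held it. The capitals mark the matching letters, which read as a match on both strands. The IRF1 stretch is chr5:132490879-132490907 on the minus strand and the IRF9 stretch chr14:24161192-24161220 on the plus strand (GRCh38.p14), and the capitals begin 124 bases before the start of IRF1 and 63 bases before that of IRF9.
IRF1: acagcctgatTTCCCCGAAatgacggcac
IRF9: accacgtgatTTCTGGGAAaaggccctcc
The longer interferon-stimulated response element, searched as GAAA and a second GAAA with any 2 bases between them on either strand, was in none of the 9 windows and in 3.57% of all windows. These are matches of letters, and binding was not measured.

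Signals are given as log2 of the processed signal after cyclic loess normalization across the 10 arrays, and differences as log2 fold changes of miR-1225-3p against scrambled with their standard error (SE). The share of spots well above background ran from 41.95% to 53.85% in the miR-1225-3p arrays and from 43.09% to 61.18% in the scrambled arrays. Of 20648 probes kept because at least 3 arrays of either group were well above background, 35% passed an adjusted p of 0.05, so a call by itself is common here. The array labelled miR-1225-3p replicate 5 stood apart from its group. Over all genes it carried 0.0556 of the difference between the other arrays of the groups, against 0.873 to 1.597 for replicates 1 to 4 and -0.0922 to 0.184 for the scrambled arrays. The results for IRF1, IRF3 and IRF9 are therefore given with and without it, and all others with it unless stated. The arrays lay on 2 slides, with 2 arrays of miR-1225-3p and 3 of scrambled on slide 1 and 3 and 2 on slide 2.

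Expression of 3 of the 5 measured genes was called lower and of 0 higher, against 18% and 16.8% of all genes. The calls were not equally firm. Over 25 alternative ways of running the comparison, the brighter IRF3 probe kept its call in 22, IRF1 in 12 and IRF9 in 10. IRF1, IRF3 and IRF9 were lower after miR-1225-3p, by 2.30-fold, 2.08-fold and 3.23-fold, while IRF5 and IRF7 did not pass the test and IRF2, IRF4 and IRF8 were not well above background on any array. In probes, 4 of the 6 that passed the filter were called lower, against 18.7% of all kept probes, and 0 were called higher, against 16.3%. The median log2 fold change was -1.06 over the 5 measured genes and -0.06 over all 17379 genes. It stayed below 0 under each normalization, background correction and treatment of flagged spots tried, between -1.27 and -0.55. Only the brighter IRF3 probe had groups that did not overlap, which 12.6% of all kept probes showed. The plot of every probe by array shows these values.

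**Figure D1:**
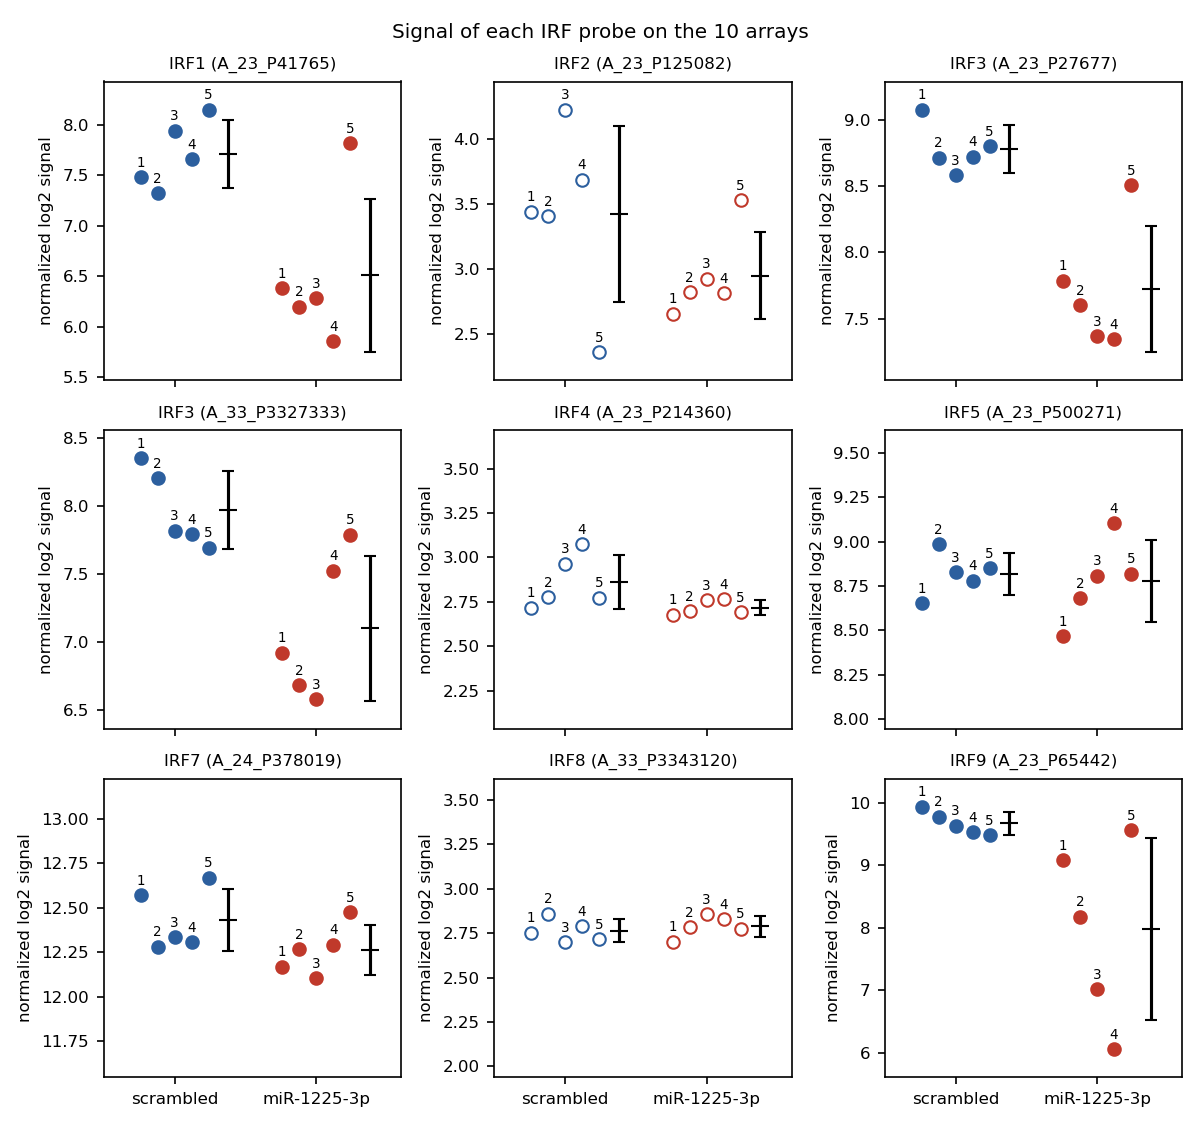
Normalized log2 signal (vertical axis, own range in each panel) of the 9 probes on the 10 arrays, scrambled in blue and miR-1225-3p in red, with replicate numbers, and the mean ± SD of 5 arrays as bars. Open points were not well above background (IRF2, IRF4 and IRF8 on all arrays), and replicate 5 of miR-1225-3p lies highest of its group for IRF1, IRF3 and IRF9.

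IRF3 is the factor that TBK1 phosphorylates and that starts interferon beta transcription. Its brighter probe (A_23_P27677) read 7.79, 7.60, 7.37, 7.34 and 8.51 in miR-1225-3p replicates 1 to 5 and 9.08, 8.72, 8.58, 8.72 and 8.80 in the scrambled replicates. Every miR-1225-3p array was below every scrambled array, and replicate 5 came within 0.1 of the lowest of them. The means were 7.72 ± 0.475 and 8.78 ± 0.184 (SD, n = 5 each), which differ by -1.06 (log2, SE 0.224, 95% interval -1.56 to -0.56, adjusted p = 0.0150 from limma). The exact permutation test over arrays gave p = 0.00794, two-sided, the smallest that 5 against 5 allows. Leaving out replicate 5 of miR-1225-3p gave -1.26 (adjusted p = 0.000166 from limma).

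The other IRF3 probe (A_33_P3327333), printed on the array in 1 spot where the remaining probes had 2, gave a like value. It read 6.92, 6.69, 6.58, 7.52 and 7.79 in the miR-1225-3p replicates and 8.35, 8.21, 7.82, 7.80 and 7.70 in the scrambled ones. Replicate 5 of miR-1225-3p overlapped the scrambled arrays, and the other 4 lay below all of them. The log2 fold change was -0.87 (SE 0.258, adjusted p = 0.0297 from limma; exact permutation p = 0.0159), and -1.04 without replicate 5 (adjusted p = 0.00363 from limma). With normexp background correction it was -0.52 (adjusted p = 0.0285 from limma). Leaving out 1 array at a time kept the brighter probe past the threshold in 10 of 10 cases and this probe in 3, without miR-1225-3p replicate 4 (adjusted p = 0.0393) or 5 or scrambled replicate 5 (adjusted p = 0.0407 from limma).

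IRF7, the factor that amplifies the interferon alpha response, read 12.17, 12.27, 12.10, 12.29 and 12.47 after miR-1225-3p and 12.57, 12.28, 12.33, 12.31 and 12.67 in the scrambled arrays. The groups overlapped, at means of 12.26 ± 0.141 and 12.43 ± 0.176 (SD, n = 5 each). The difference was -0.17 on the log2 scale with a 95% interval of -0.47 to 0.12 (adjusted p = 0.317 from limma), and it was 0.37 when each array was scaled to its 75th percentile instead (adjusted p = 0.116 from limma). IRF7 is thus given without a direction.

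IRF5, which acts below the endosomal Toll-like receptors, read 8.47, 8.68, 8.81, 9.10 and 8.82 after miR-1225-3p and 8.65, 8.98, 8.83, 8.78 and 8.85 in the scrambled arrays. Both the highest and the lowest of the 10 arrays were miR-1225-3p arrays. The log2 fold change of -0.04 had a 95% interval of -0.36 to 0.28 (adjusted p = 0.823 from limma), and its sign turned to 0.23 with 75th percentile scaling and to 0.10 with quantile normalization.

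IRF1, the interferon gamma-induced activator of antigen presentation genes, read 6.38, 6.20, 6.28, 5.85 and 7.82 in the miR-1225-3p replicates against 7.48, 7.32, 7.94, 7.66 and 8.15 in the scrambled ones. Replicates 1 to 4 lay below every scrambled array and replicate 5 among them. The means were 6.51 ± 0.760 and 7.71 ± 0.337 (SD, n = 5 each), and the log2 fold change was -1.20 (SE 0.342, 95% interval -1.96 to -0.44, adjusted p = 0.0268 from limma; exact permutation p = 0.0317). Without replicate 5 it was -1.53 (adjusted p = 0.000256 from limma).

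The IRF1 call rests on the treatment of 1 spot. On miR-1225-3p replicate 3 the scanner software flagged 1 of the 2 IRF1 spots as an outlier, with a processed signal of 3785 where its partner had 41.4. That spot was left out. With flagged spots kept, the log2 fold change was -0.55 (adjusted p = 0.488 from limma), and it was -0.57 in the authors' normalized values (adjusted p = 0.452 from limma). With normexp background correction it was -0.71 (adjusted p = 0.0374 from limma). With that array left out altogether it was -1.15 (adjusted p = 0.0636 from limma). With 1 array left out the call held in 3 of 10 cases, without scrambled replicate 1 (adjusted p = 0.0476) or 2 (adjusted p = 0.0438 from limma) or miR-1225-3p replicate 5. That spot was the sole flagged spot among the 170 spots of the 9 probes on the 10 arrays.

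IRF2, the antagonist of IRF1 at shared elements, was not well above background on any of the 10 arrays, with measured log2 signals from 2.65 to 3.53 after miR-1225-3p and from 2.36 to 4.23 in the scrambled arrays. No fold is given for it.

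IRF9, the DNA-binding part of ISGF3, had the widest spread among the measured genes of the family. It read 9.08, 8.18, 7.02, 6.05 and 9.57 in the miR-1225-3p replicates and 9.94, 9.78, 9.64, 9.53 and 9.48 in the scrambled ones. Replicates 1 to 4 of miR-1225-3p were below every scrambled array, replicate 1 by the least, and replicate 5 was above 2 of the scrambled arrays. The means were 7.98 ± 1.45 and 9.67 ± 0.187 (SD, n = 5 each), so the SD was larger after miR-1225-3p. The log2 fold change was -1.69 (SE 0.584, 95% interval -2.99 to -0.40, adjusted p = 0.0463 from limma; exact permutation p = 0.0238), and -2.09 without replicate 5 (adjusted p = 0.00785 from limma). With 1 array left out it passed the threshold in 2 of 10 cases, without miR-1225-3p replicate 1 (adjusted p = 0.0447 from limma) or 5.

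IRF4 and IRF8, the lymphoid and myeloid members of the family, were not well above background on any array. IRF4 measured 2.68 to 2.77 after miR-1225-3p and 2.72 to 3.07 in the scrambled arrays, and IRF8 measured 2.70 to 2.86 in both groups. Of 18 lymphoid and myeloid markers listed, 12 were measured. CD79A of B cells, CD3D of T cells and MPO, ELANE, CSF1R, ITGAM and CD14 of myeloid cells were among those well above background on all 10 arrays, and MS4A1 and PAX5 of B cells and CLEC4C of plasmacytoid dendritic cells were not on any.

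Set against the mean of the scrambled arrays, the 4 called probes were lower on miR-1225-3p replicates 1 to 4 and near it on replicate 5. In miR-1225-3p replicate 1 the deviations were -1.33 for IRF1, -0.995 and -1.05 for the 2 IRF3 probes and -0.59 for IRF9. In replicate 3 they were -1.43, -1.41, -1.39 and -2.65. In replicate 4 they were -1.85, -1.44, -0.45 and -3.62. The second IRF3 probe was thus nearer the scrambled level there, though still below every scrambled array, and IRF9 was far below it. In replicate 5 they were 0.11, -0.27, -0.18 and -0.11, within the spread of the scrambled arrays for 3 of the 4 probes and just below it for the brighter IRF3 probe.

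**Figure D2:**
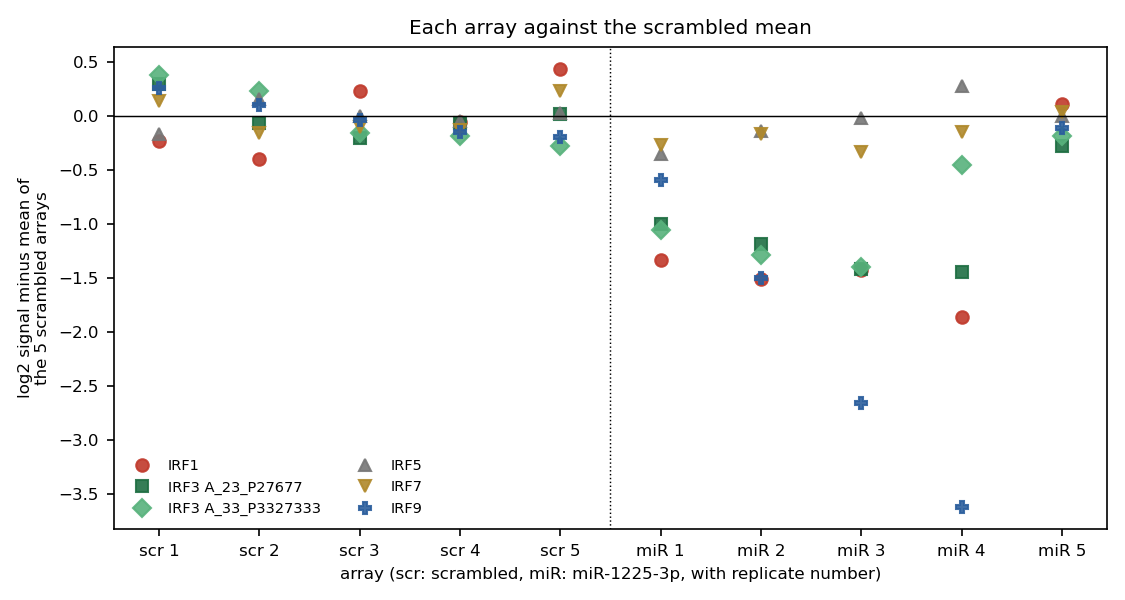
Log2 signal minus the mean of the 5 scrambled arrays (vertical axis) for the 6 measured probes on each of the 10 arrays (horizontal axis). IRF1, IRF3 and IRF9 lie from -3.62 to -0.45 on the first 4 miR-1225-3p arrays and from -0.27 to 0.11 on replicate 5, while IRF5 and IRF7 lie from -0.35 to 0.29 on the 10 arrays.

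Within slide 1 the log2 fold changes were -1.57 for IRF1 (adjusted p = 0.0171), -1.13 and -1.15 for the IRF3 probes (adjusted p = 0.0227 and 0.0310) and -1.05 for IRF9 (adjusted p = 0.0639), all from limma. Within slide 2, which holds replicate 5, they were -0.84, -0.98, -0.70 and -2.11, with adjusted p from 0.501 to 0.522, and none of the 20648 probes passed there (1395 had an unadjusted p under 0.05, none of them of these genes). With slide as a block IRF9 no longer passed (-1.58, adjusted p = 0.0699 from limma) and IRF1 and IRF3 did. The direction of these 4 probes was the same under all 25 alternatives run, 24 for the second IRF3 probe, but the call was not. The brighter IRF3 probe kept its call in 22 of them, IRF1 in 12 and IRF9 in 10.

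**Figure D3:**
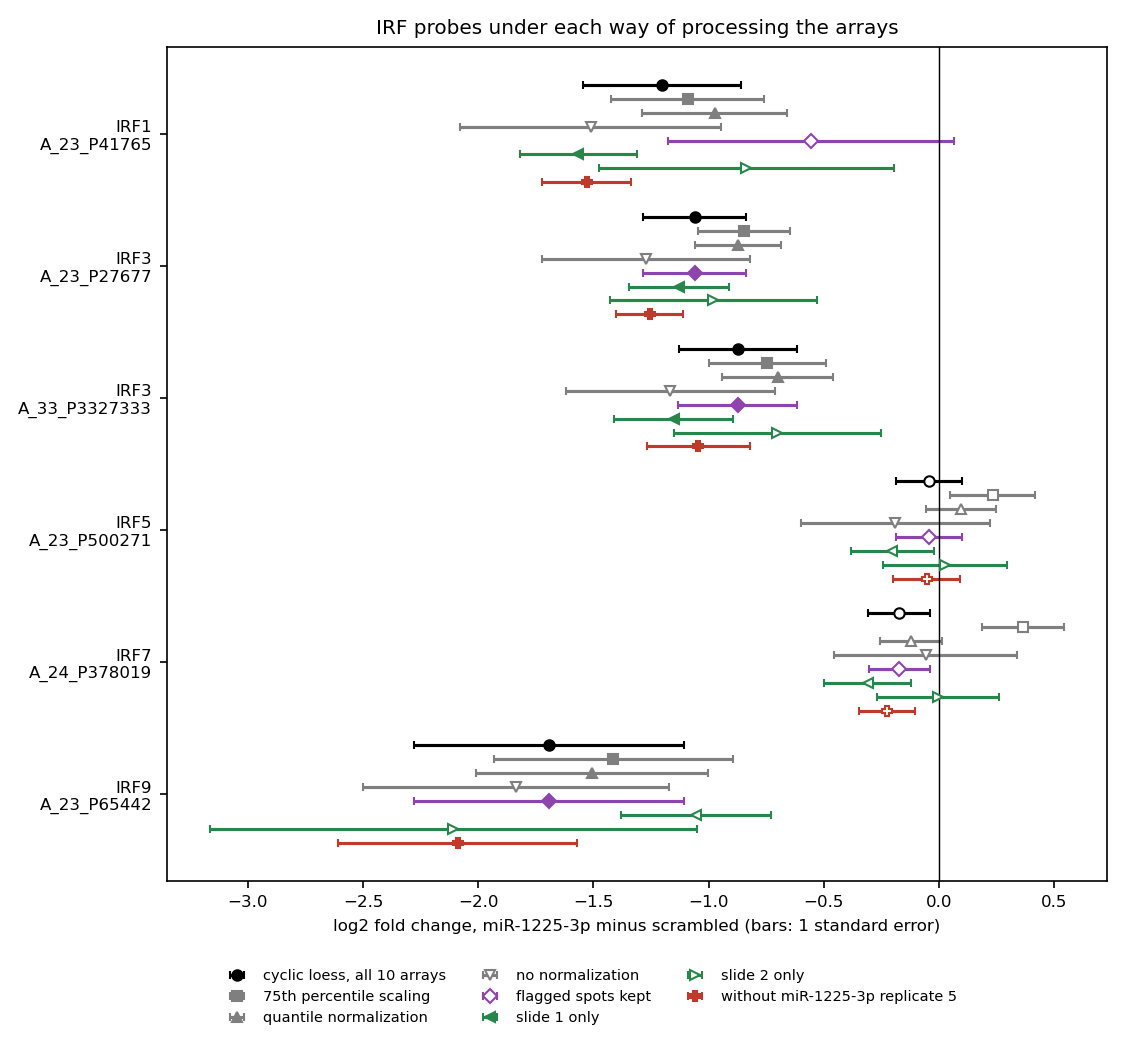
Log2 fold change of miR-1225-3p against scrambled (horizontal axis, bars 1 SE) of the 6 measured IRF probes under 8 ways of processing, filled where the adjusted p was under 0.05. The 2 IRF3 probes and IRF9 stay below 0 throughout, IRF1 moves to -0.55 with flagged spots kept, and IRF5 and IRF7 lie on both sides of 0.

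The array profile of the brighter IRF3 probe was closest to those of the probes named NM_000034, TPI1P2 and MAPKAPK3. Likeness was the root mean square difference between profiles centred on their own means over the 10 arrays, which was 0.0880, 0.0987 and 0.100 on the log2 scale against a median of 0.737 over 17302 genes. IRF1 was at 0.351 from IRF3, and IRF9 at 0.755.

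The sensors, adaptors and kinases that activate IRF3, IRF5 and IRF7 moved in both directions. Of 24 measured genes of 34 listed, 5 rose, 5 fell and 14 did not pass, where 34.8% of all genes passed (16.8% higher and 18% lower), and their median was 0.01. The kinase TBK1 (-0.45, adjusted p = 0.0693) and the adaptors MAVS (0.02, adjusted p = 0.892) and STING1 (0.06, adjusted p = 0.743) did not pass in limma, and the other MAVS probes read -0.46 and 0.35. The interleukin-1 receptor-associated kinase IRAK1 (-1.80, adjusted p = 0.0241), the cytosolic DNA sensor CGAS (-0.76, adjusted p = 0.0163) and the RNA sensor IFIH1 (-0.58, adjusted p = 0.0397) fell in limma. The ubiquitin ligases TRIM25 and TRAF6 and the kinase CHUK rose by 1.15, 0.90 and 0.71 (adjusted p = 0.0220, 0.0150 and 0.0155 from limma). TLR3, TLR7 and TLR8, the endosomal RNA receptors, were not well above background on any array.

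Among interferons, receptors, Janus kinases and STATs, 4 rose, 7 fell and 7 did not pass of 18 measured out of 29 listed. Thus 61.1% were called, against 34.8% of all genes, with a median of -0.14. This median turned to 0.03 under quantile normalization, where the median of all genes was 0.08. IFNB1, the usual product of IRF3, and IFNG were not well above background on any array. STAT2, which IRF9 binds in ISGF3, measured 10.39 to 11.09 in the scrambled arrays and 10.45 to 11.24 after miR-1225-3p, a difference of 0.04 on the log2 scale (limma, adjusted p = 0.896).

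The interferon gamma receptor chain IFNGR1 (-2.22, adjusted p = 0.0164), STAT5A (-0.99, adjusted p = 0.0218) and the shared receptor chain IL10RB (-0.86, adjusted p = 0.0432) fell in limma. IFNK, an interferon of keratinocytes, JAK2 and STAT5B rose by 0.95, 0.70 and 0.54 (adjusted p = 0.0150, 0.0218 and 0.0292 from limma). On replicate 5 IFNGR1 read 10.76, inside the scrambled range of 10.75 to 10.87, with a lowest miR-1225-3p value of 7.54.

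Of the partners and inhibitors, 8 rose, 13 fell and 11 did not pass of 32 measured out of 36 listed. Thus 65.6% were called, against 34.8% of all genes, with a median of -0.36. With 75th percentile scaling the median was -0.05, where 9 rose and 10 fell and the median of all genes was 0.16. The IRF2-binding co-repressors included IRF2BPL, which was well above background on 5 scrambled arrays and on 1 miR-1225-3p array, so the size of its fall is uncertain. It measured -2.19 on the log2 scale (adjusted p = 0.0146 from limma) and -0.55 with normexp background correction. IRF2BP1 was well above background on 3 scrambled arrays and on no miR-1225-3p array, so the size of its fall is uncertain as well. It measured -1.51 on the log2 scale (adjusted p = 0.0144 from limma) and -0.30 with normexp background correction. IRF2BP2 (-0.48, adjusted p = 0.389) and SPI1, the partner of IRF4 and IRF8 (-0.43, adjusted p = 0.146), did not pass in limma. The AP-1 subunit JUNB (-1.87, adjusted p = 0.0306), the IRF4-binding protein DEF6 (-1.47, adjusted p = 0.0163) and the NF-kappaB subunit RELA (-1.35, adjusted p = 0.0261) fell in limma. Second probes read -0.74 for DEF6 (adjusted p = 0.342) and -1.46 for RELA (adjusted p = 0.0512 from limma). The phosphatase PTPN2, the deacetylase HDAC3 and the repressor ETV6 rose by 1.11, 1.01 and 0.97 (adjusted p = 0.0144, 0.0152 and 0.0358 from limma), though another ETV6 probe read -0.34 (adjusted p = 0.158) and the other PTPN2 probes read 0.91 (adjusted p = 0.0152) and 0.07 (adjusted p = 0.715).

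Among genes that interferons and these factors are known to induce, 4 rose, 22 fell and 33 did not pass of 59 measured out of 68 listed. Of the 59 genes, 44.1% were called, against 34.8% of all genes. Their median of -0.31 turned to 0.15 with 75th percentile scaling, where 11 rose and 14 fell and the median of all genes was 0.16, so the list as a whole is given without a direction. IFI6, an interferon-induced mitochondrial protein, fell by 3.91 (adjusted p = 0.0146 from limma), from 11.92 to 13.10 in the scrambled arrays to 7.504 to 12.06 after miR-1225-3p, where 12.06 was replicate 5. The secreted glycoprotein LGALS3BP (-2.02, adjusted p = 0.0261) and UBE2L6, the conjugating enzyme for ISG15 (-1.66, adjusted p = 0.0294), fell in limma. The peptide transporter subunit TAP2 and the nucleotide kinase CMPK2 rose by 0.69 and 0.67 (adjusted p = 0.0401 and 0.0453 from limma). Without miR-1225-3p replicate 5, 15 genes of this list rose and 26 fell. In that fit 55.8% of all 20648 kept probes passed, 5226 higher and 6298 lower. Leaving out 1 array at a time was also done for the called genes named here from the 4 lists. CGAS, TRAF6, CHUK, IFNGR1, IFNK, DEF6, PTPN2, HDAC3 and IFI6 kept the call in 10 of 10 cases. IRF2BP1 and IRF2BPL did too, but they passed the filter only through the scrambled arrays, where they were higher. That count is therefore no support for them. The other called genes kept the call in 1 to 8 cases.

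**Figure D4:**
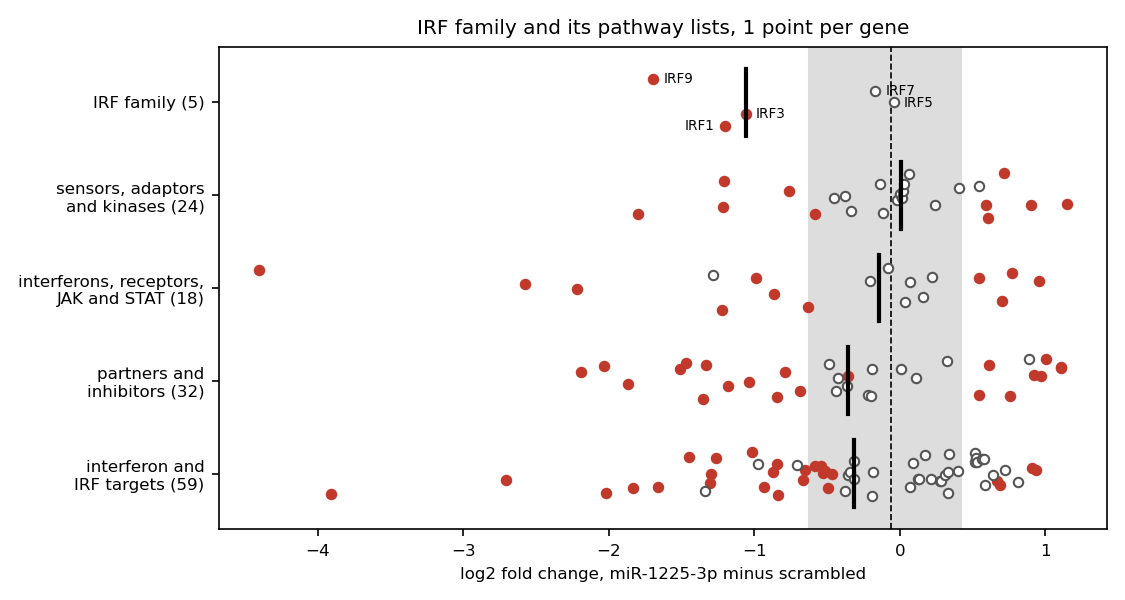
Log2 fold change of miR-1225-3p against scrambled (horizontal axis), 1 point per measured gene, for the IRF family and 4 lists, with red points at an adjusted p under 0.05, the list median as a black bar, and the range between the quartiles of all genes in grey around their median of -0.06 (dashed). The IRF median is -1.06, and the list medians run from -0.36 to 0.01.

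Markers of the labelled cell type and of other blood cells were set beside these values. Of 18 listed megakaryocyte markers 13 were measured, of which 4 fell, 1 rose and 8 did not pass, so that 38.5% were called against 34.8% of all genes, with a median of -0.46. The integrin subunit ITGA2B fell by 1.39 (adjusted p = 0.0439 from limma), and the transcription factor RUNX1 rose by 0.46 (adjusted p = 0.0227 from limma). PF4 was not well above background on any array, nor VWF and SELP on more than 1. In the sums of linear signal given here the brightest probe weighs most. In the scrambled arrays it was NFE2 for the megakaryocyte list (mean log2 12.82), CD4 for the lymphoid and myeloid list (12.84) and HBG1 for the erythroid list (18.34). The sum of the 13 ran from 11288 to 12478 after miR-1225-3p and from 13370 to 15229 in the scrambled arrays, without overlap. Singly, 4 of the 13 had groups that did not overlap, against 12.6% of all kept probes. Of 12 measured lymphoid and myeloid markers 3 rose and 0 fell, so that 25% were called against 34.8% of all genes. Their median was 0.01, and 6 of the 12 had a negative log2 fold change. Of 10 erythroid markers 1 rose and 1 fell, so that 20% were called, with a median of -0.11. The sums after miR-1225-3p and in the scrambled arrays were 6914 to 12783 against 9693 to 38365 for the lymphoid and myeloid list. For the erythroid list they were 214833 to 330685 against 276700 to 467167. The part of such shifts in the IRF values was not tested, and less RNA per cell cannot be told apart here from fewer cells that make it.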

How the data were processed

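RNA of MEG-01 cells transfected with miR-1225-3p or scrambled precursor (5 arrays each) was measured. The authors deposited Agilent Feature Extraction output (version 10.7.3.1 per the labels), with a processed intensity per spot from which background had been removed and flags for each spot, and a table of cyclic loess normalized log2 values. The methods name another software version.

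From these, 4259 control spots and outlier-flagged spots were left out, log2 processed signals of 58717 spots were normalized by cyclic loess (limma 3.58.1, R 4.3.3, 3 iterations) and spots of a probe averaged. A probe was well above background on an array where a share of at least 0.5 of its spots was flagged so. It was kept where this held on at least 3 arrays of either group (20648 of 42405). Saturated spots numbered 0. Precision is limited by how many arrays there are. Symbols came from the RefSeq table of GRCh38.p14 (24910 probes matched), and a gene is its kept probe with the highest mean. Groups were compared by limma with Benjamini-Hochberg adjustment over all kept probes at 0.05, and single probes by exact two-sided permutation tests. The fit was tested on simulated data with independent noise on each array. Those data held no slide effect and no array like miR-1225-3p replicate 5, so the test does not cover them.

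The members and lists were chosen with earlier results of these data known. Named are all members, in each list the 3 largest rises and 3 largest falls among called genes well above background on all 10 arrays, IRF2BP1, IRF2BP2, IRF2BPL, STAT2, TBK1, MAVS, STING1 and SPI1 whatever they did, and the 3 profiles nearest to IRF3. Other genes were named after their values were seen. Some genes that this rule or the lists cover are not reported here. Alternatives covered normalization, the authors' values, background correction (normexp, offset 50, on the median signal), filter, flagged spots, probe choice, test, replicate and slide blocks and leaving out arrays. Same-numbered arrays of the groups deviated with correlations of -0.401 to 0.0586. This gave no sign that the numbers pair samples, and the main comparison was unpaired. With 5 arrays per group the check cannot exclude pairing.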

Additional observations from a re-analysis of the deposited data

Results flagged for a closer look

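An array was picked out where its gap to the nearest of the other 4 arrays of its group exceeded 0.71 of that group's range. This held in 10 of 76 groups of arrays examined, where chance gives 3.8, and 8 of the 10 were miR-1225-3p replicate 5. The groups are probes on the same 10 arrays. Those 8 are therefore the same array seen through several genes and not separate events. IRF1 read 7.82 there against at most 6.38 in its group. CGAS read 8.98, JUNB 9.09 and IFI6 12.06 there, each the highest of its group, at the scrambled side of the difference. TRAF6 read 7.76, CHUK 9.30, IFNK 8.83 and ETV6 6.17 there, each the lowest of its group, again toward the scrambled arrays. The remaining cases were IFNK on scrambled replicate 5 at 8.84 and STAT5B on scrambled replicate 1 at 9.18.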

How the results depend on the processing

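The number of IRF probes called (4) fell to 0 without normalization (4 at an unadjusted p under 0.05), to 1 without the filter on dim probes, to 0 with a replicate block (4 unadjusted) and to 0 within slide 2 (none unadjusted), and ran from 1 to 4 with 1 array left out. It was 1 when replicate 2 or 3 of miR-1225-3p was left out, likewise for 3 or 4 of scrambled, and 2 for replicate 1 or 4 of miR-1225-3p and 1, 2 or 5 of scrambled. The pairing check did not favour the replicate block but could not exclude it. With the block, IRF1 and the brighter IRF3 probe had an adjusted p of 0.0503 in limma. IRF9 had 0.0631 and the other IRF3 probe 0.0756 in limma, and 0 of all probes passed (8994 unadjusted). All probes called (7225) came to 1224 without normalization, 4014 without the filter, 0 within slide 2 (1395 unadjusted) and 2280 to 11524 with 1 array left out, the highest without miR-1225-3p replicate 5. The share called lower was 53.6%, and 38.9% with 75th percentile scaling, 42.6% with quantile normalization and 85.8% without normalization, where the median of all probes moved from -0.09 to 0.11, 0.04 and -0.31. The methods' t-test called 9874 probes unadjusted at its threshold and 5481 after Benjamini-Hochberg, with 3 IRF probes.

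Activators called (10) came to 0 without normalization, with the replicate block or within slide 2, and to 3 to 13 with 1 array left out. Interferon, receptor, JAK and STAT genes (11) came to 2 without normalization, 7 without the filter or with the filter on all 10 arrays, 0 with the block or within slide 2, and 4 to 12. Partners and inhibitors (21) came to 3 without normalization, 11 without the filter, 0 with the block or within slide 2, and 9 to 23. Targets (26) came to 5 without normalization, 13 without the filter, 12 within slide 1, 0 with the block or within slide 2, and 9 to 41.

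Only genes that did not pass turned sign. IRF7 was 0.37 and IRF5 0.23 with 75th percentile scaling, and IRF5 0.10 with quantile normalization, 0.028 within slide 2 and from -0.12 to 0.035 with 1 array left out. MAVS was -0.088 without normalization, -0.018 in the authors' values, -0.0039 with normexp, -0.027 within slide 1 and from -0.035 to 0.060 with 1 array left out. STING1 was -0.039 in the authors' values, -0.033 within slide 2 and from -0.012 to 0.12. STAT2 was -0.039 in the authors' values, -0.022 with normexp and from -0.072 to 0.14. IRF2BP2 was 0.59 within slide 1. Where no value above shows it, the cause was not tested.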
